A study of Mus musculus with 6 samples.

Results

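The genes described here are enzymes of oxidation and reduction in enteroids, cultured epithelial organoids that grow from crypts of the mouse small intestine. They were the rows of the authors' deposited table that carry the annotation term for oxidation-reduction process, without the terms for lipid metabolism or immune processes, and outside several gene families and single genes that the rule names. The rule gave 32 of the 690 listed genes, and 54 other listed genes carry the term. RNA-seq libraries were made from 2 wells of enteroids of 1 mouse treated with recombinant IL-22 for 24 hours and from 4 untreated wells of 2 mice. All enteroids came from C57BL/6J mice without necrotizing enterocolitis, aged 6 weeks in the sample labels and 8 weeks or, for neonates, 7 days in the protocol, and were differentiated for 4 days in medium with EGF, Noggin and R-spondin 1. The IL-22 dose was not settled, since the labels name 2 ng/ml and the table's header 100 ng. Wells of 1 mouse are technical replicates by their titles, and a mouse 1 occurs in both groups without a statement that it is 1 animal, so p-values reflect how wells vary and not how treated mice vary.

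Oxidoreductases move electrons between a substrate and a carrier such as NADPH, a flavin, haem or a metal ion. In the intestinal epithelium they clear aldehydes, amines, drugs and retinol taken up from food, keep glutathione reduced, take part in iron and copper uptake, and release hydrogen peroxide or nitric oxide towards the lumen. IL-22 is a cytokine of lymphoid cells that signals to the epithelium by way of STAT3.

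The label of an oxidation-reduction set without cytochrome P450 did not hold for every row. Of the 32 genes, 5 rows carry no gene symbol, so that a rule based on symbols cannot sort them. By their Entrez identifiers these are Akr1b8, Acad11 and the cytochrome P450 genes Cyp2d10, Cyp2c37 and Cyp2d11. Without the 3 P450 genes, 29 genes were left. In the deposited annotation 30 of the 32 genes carry oxidoreductase activity. Ppp1r3b is among those that do not, and F5, a blood clotting factor, carries the activity although it is not a classical redox enzyme.

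With IL-22, 8 of the 32 genes were higher and 24 were lower, or 8 and 21 without the P450 genes. The authors had listed only genes that differed at least 2-fold, and among all 690 listed genes 38.7% were higher and 61.3% were lower. The higher genes were the metalloreductases Steap4 and Steap1, the oxidase Duox1, the nitric oxide synthase Nos3, glutathione reductase Gsr, the folate enzyme Aldh1l1, the aldo-keto reductase Akr1b8 and the glycogen-targeting subunit Ppp1r3b. The lower genes comprised enzymes for carbonyls, retinol, amines, drugs, thyroid hormone and vitamin K. The median fold was 2.78 for the higher genes and 2.79 for the lower genes, against 3.15 and 2.70 over all listed genes. A difference of at least 4-fold was seen for 2 higher genes (13.2% of listed genes) and for 7 lower genes (13.8% of listed genes), of which 3 were the P450 genes.

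Values are reads per 1000000 reads of the library (RPM), and group values are the authors' means ± SEM, with n = 2 IL-22 libraries and n = 4 control libraries. The libraries held 32500000 and 29900000 reads with IL-22, against 36600000, 35200000, 27400000 and 22600000 reads in controls. The values of single libraries were recovered from each mean and SEM as whole reads, for both IL-22 libraries in every gene named and for the controls in 24 of the 32 genes. They are given with the deeper IL-22 library first and with the controls from the deepest to the shallowest, and a recovered control library is known by its depth but not by its mouse. For the other 8 genes all control libraries lie within the mean ± 3 SEM. The authors' adjusted p was under 0.05 for every listed gene, but it was adjusted over the 690 listed genes alone. Adjusted over all 21951 protein-coding genes, with unlisted genes given the largest possible p, 5 of the 32 genes passed 0.05, which were 2 higher genes (13.6% of listed genes passed and were higher) and 3 lower genes (7.97% passed and were lower). In both directions together 21.6% of listed genes passed. An exact permutation of 4 and 2 wells cannot give a p below 0.0667.

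**Figure D1:**
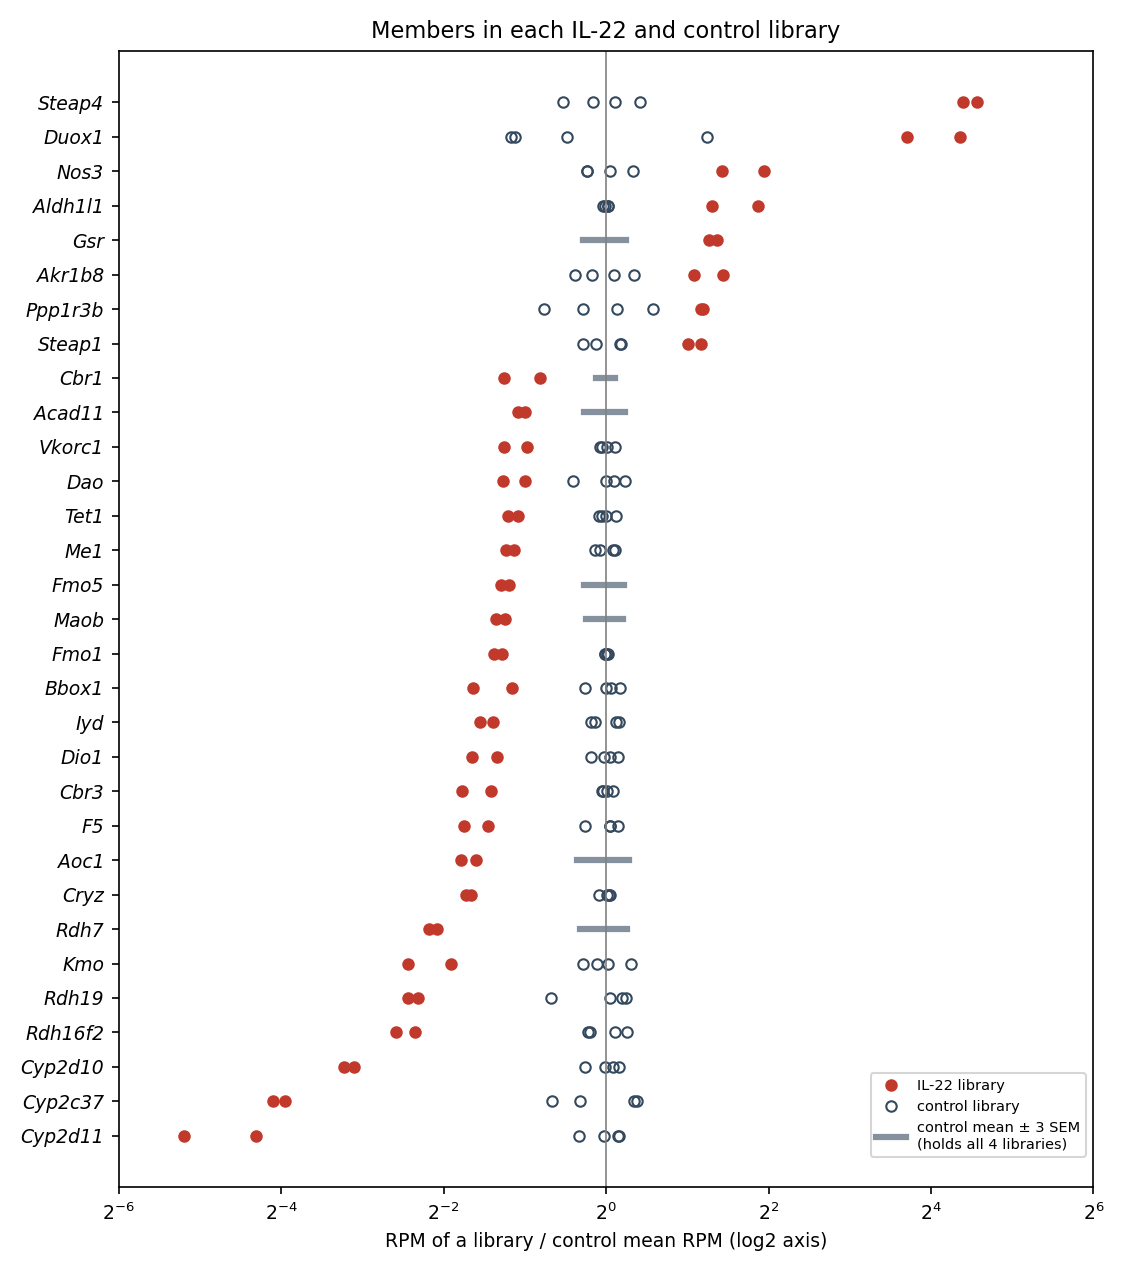
Each row is 1 gene, and the logarithmic horizontal axis gives the RPM of a library divided by the mean of the control libraries. Filled points are the 2 IL-22 libraries, open points the 4 control libraries, and bars the range of the control mean ± 3 SEM for genes whose control libraries were not recovered. The groups do not overlap for any gene drawn. The authors' selection of listed genes favours such a separation, which was not counted over all listed genes.

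The wells of each group lay close together for most of these genes. The authors' selection favours genes with such close wells, and the same count was not made over all listed genes. Both IL-22 libraries were within 1.5-fold of each other in 30 of the 32 genes, with a median ratio of 1.13 and the largest ratio, 1.84, in Cyp2d11 at 2 reads and 1 read. In the control group the ratio of the highest to the lowest recovered library had a median of 1.36 and reached 5.34 in Duox1. Summed over the 8 higher genes, the group means came to 869.6 RPM with IL-22 and 347.3 RPM in controls. Gsr alone gave 717.5 and 287.5 RPM of these sums, whose direction is fixed because only higher genes were summed.

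**Figure D2:**
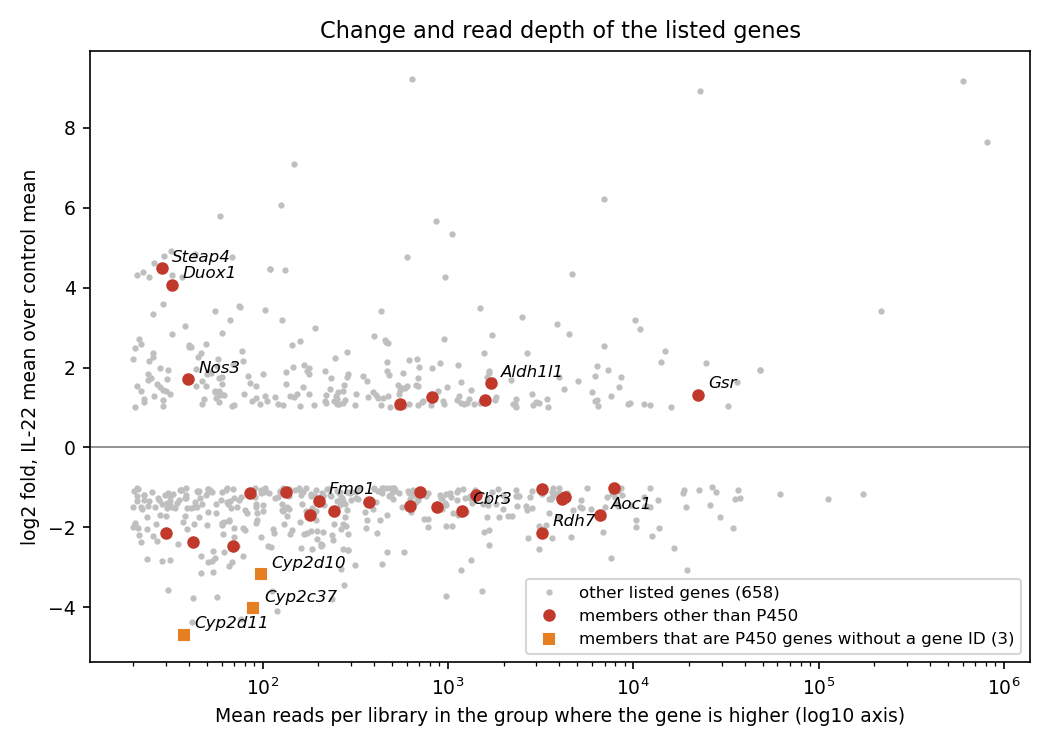
Each point is 1 listed gene, with the mean reads per library in the group where it is higher on a log10 axis and the log2 fold of IL-22 over control means on the vertical axis. Red circles are genes of the set other than P450, orange squares the 3 P450 genes and grey points the other 658 listed genes. Steap4 and Duox1 stand highest of the circles but at few reads, and Gsr stands at many reads above the line.

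Steap4 and Steap1 encode members of a family of membrane proteins of which Steap4 reduces iron and copper ions with electrons from NADPH, whereas Steap1 lacks the NADPH-binding domain of its relatives. Steap4 (Entrez 117167, chromosome 5) had 28 and 29 reads in the IL-22 libraries, which is 0.862 and 0.971 RPM. The control libraries held 2 reads in the deepest and 0 in the other 3, in which the authors' processing leaves the value of 1 read (0.0284 to 0.0442 RPM). Nearly all reads of Steap4 thus came from the wells with IL-22. No listed gene had under 20 mean reads in its higher group, so Steap4 was listed through its IL-22 reads. The authors' deposited table gives 0.917 ± 0.0541 RPM with IL-22 and 0.0409 ± 0.0056 RPM in controls, a 22.4-fold difference with an adjusted p of 0.000276. Steap4 rose also by the adjustment over all protein-coding genes, at 0.00878. In the 3 control libraries without reads the value is filled in, so the control SEM does not measure how Steap4 varies between wells. Both p-values pool this SEM with the larger one of the IL-22 wells. Those wells, at 28 and 29 reads, lie closer together than counting error alone would place them. Both p-values may thus be too small. Because the control count is so low, the ratio of summed reads per depth was 55.7 with a 95% exact conditional interval of 14.7 to 471.2, which covers counting error only. Leaving out either IL-22 library gave 21.1-fold and 23.7-fold.

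Steap1 (Entrez 70358), which lies on the same chromosome, was detected in every library. It had 16.7 and 18.6 RPM with IL-22, against 7.57, 9.28, 6.82 and 9.40 RPM in the control libraries. Both IL-22 libraries lay above the highest control library. Steap1 was 2.14-fold higher according to the authors' deposited table, with an adjusted p of 0.00317, and 0.101 over all protein-coding genes. Between them in the RefSeq order lie 3 genes that are not listed, and Steap2, on the other side of Steap1, is not listed either. Among 40 genes for metal and quinone reductases and ferroxidases, 5 were listed, and the listed genes besides both Steap genes were lower, with Cyb5r3 at 0.50, Nqo1 at 0.43 and Vkorc1 at 0.46 of the control mean in the authors' deposited table.

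The promoters of these neighbours are shown because STAT3 transmits the IL-22 signal and its usual site can be looked for in them. The 250 bases before the start of transcription are those of RefSeq in GRCm38.p6, where 25 of the 32 genes have an entry, and both strands were searched. Capitals mark a match to the STAT motif TTCCNGGAA.
Steap4, chr5:7960222-7960471, plus strand: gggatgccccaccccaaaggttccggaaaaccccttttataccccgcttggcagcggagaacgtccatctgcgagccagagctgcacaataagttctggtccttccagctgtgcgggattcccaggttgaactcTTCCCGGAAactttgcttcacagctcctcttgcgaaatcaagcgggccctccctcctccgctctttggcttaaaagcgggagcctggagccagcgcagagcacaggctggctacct
Steap1, chr5:5749318-5749567, minus strand: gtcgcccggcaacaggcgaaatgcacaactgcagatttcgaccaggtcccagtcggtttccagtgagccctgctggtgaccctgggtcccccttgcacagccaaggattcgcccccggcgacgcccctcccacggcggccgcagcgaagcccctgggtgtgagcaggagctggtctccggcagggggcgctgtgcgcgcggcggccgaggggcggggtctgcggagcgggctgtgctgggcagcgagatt
The match in Steap4 starts 116 bases before the start of transcription, and Steap4 was the single gene of the 25 with this motif, which 0.913% of all 32851 promoters hold. A looser form, TTCNNNGAA, which overlaps the same letters, was also found in Steap4 alone, and 7.02% of promoters hold it. Steap1 held neither form in this window. A match is a description of the letters and was not tested as a binding site.

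Duox1 and Nos3 encode enzymes that release reactive small molecules, hydrogen peroxide from the membrane oxidase Duox1 and nitric oxide from the endothelial-type synthase Nos3. Both were higher with IL-22, at low read numbers. Duox1 (Entrez 99439, chromosome 2) had 1.26 and 0.803 RPM with IL-22, from 41 and 24 reads, against 0.0273, 0.0284, 0.146 and 0.0442 RPM in the control libraries, from 6 reads in all. The lowest IL-22 library stood above every control library, and 1 control library lay apart from the other 3. Each of these 3 lower values is that of 1 read, which the authors' processing also leaves in a library without reads. Which of these libraries held a read was not recovered. The authors' deposited table gives a 16.8-fold difference with an adjusted p of 0.00515, and the value over all protein-coding genes was 0.164. Without the control library that lay apart, the difference was 31.03-fold, a ratio to values of 1 read that may be filled in. The ratio of summed reads per depth was 21.2, with an interval of 9.22 to 59.8. The neighbouring genes of the same system, which lie outside the set, were also higher in the authors' deposited table, Duox2 40.2-fold and its maturation factor Duoxa2 50.4-fold, while Duoxa1 is not listed.

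Nos3 (Entrez 18127, chromosome 5) had 1.48 and 1.04 RPM with IL-22, against 0.328, 0.397, 0.328 and 0.486 RPM in the control libraries. All control libraries stood below 0.5 RPM and both IL-22 libraries above 1 RPM. The authors' deposited table gives 3.27-fold with an adjusted p of 0.00643, and the value over all protein-coding genes was 0.205. The exons of Nos3 overlap those of the antisense gene Gm15587 over 25.2% of their bases and those of Atg9b over 7.12%, so that without strand-specific counting the reads of these genes cannot be told apart. Atg9b is itself listed, at 8.05 ± 0.820 RPM with IL-22 and 3.78 ± 0.331 RPM in controls, 2.13-fold higher with an adjusted p of 0.00629 in the authors' deposited table. Its mean reads were 252 with IL-22 and 113 in controls, against 39.5 and 11.5 for Nos3, and its part in the Nos3 values was not tested. No gene of the list of blood vessel and nerve markers was among the 690 listed genes. As only changed genes were listed, this cannot show whether such cells were present.

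Gsr, Aldh1l1 and Me1 handle NADPH, the reducing power that glutathione and biosynthesis draw on. Glutathione reductase Gsr uses NADPH to return oxidized glutathione to its reduced form, Aldh1l1 makes NADPH from a folate, and the malic enzyme Me1 makes it from malate. Gsr (Entrez 14782, chromosome 8) had 691.9 and 743.1 RPM with IL-22, against a control mean of 287.5 ± 17.4 RPM. No control library can have exceeded 340 RPM. Gsr rose 2.50-fold in the authors' deposited table, with an adjusted p of 0.00104 there and of 0.0329 over all protein-coding genes, and it was the most read of the higher genes.

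Aldh1l1 (Entrez 107747, chromosome 6) had 64.9 and 43.8 RPM with IL-22, against 17.9, 18.1, 17.6 and 17.2 RPM in the control libraries. The control libraries were nearly equal and the 2 IL-22 libraries differed 1.48-fold from each other. In the authors' deposited table the gene was 3.07-fold higher with an adjusted p of 0.0073, which became 0.232 over all protein-coding genes. With unequal variances its p no longer fell under 0.05, and 11.0% of its exonic bases lie opposite the antisense gene Gm15756.

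Me1 (Entrez 17436, chromosome 9) went the other way. It had 19.8 and 21.1 RPM with IL-22, against 44.2, 49.2, 42.2 and 50.2 RPM in the control libraries, and no IL-22 library reached the lowest control. The difference was 2.27-fold lower according to the authors' deposited table with an adjusted p of 0.00273, and 0.0869 over all protein-coding genes. Of its 31-base words 63.1% occur in no other gene, which makes its count less certain. Among 53 genes for glutathione, thioredoxin and peroxide enzymes 3 were listed and 3 were higher, where 38.7% of all listed genes were higher. They were Gsr, Duox1 and the glutathione peroxidase Gpx2 at 3.13-fold in the authors' deposited table. This list holds neither Duox2, which was higher, nor catalase Cat. Cat lies outside the set and was 2.77-fold lower in the same table, at 136 RPM with IL-22 and 376 RPM in controls. Among 38 genes for NADPH supply and central carbon dehydrogenases 2 were listed and 2 were lower, where 61.3% of all listed genes were lower. They were Me1 and Gpd1, the latter at 0.40 of the control mean in the authors' deposited table. None of 33 genes of the mitochondrial respiratory chain was listed.

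Akr1b8, Cbr1, Cbr3 and Cryz reduce aldehydes, ketones and quinones with NADPH, and they did not move together. Akr1b8 (Entrez 14187, chromosome 6), an aldo-keto reductase, had 29.6 and 23.0 RPM with IL-22, against 9.62, 11.7, 8.35 and 13.9 RPM in the control libraries. Both IL-22 libraries stood above all control libraries. The authors' deposited table gives it 2.42-fold higher with an adjusted p of 0.00727, and the value over all protein-coding genes was 0.231. Its relative Akr1b7, which lies nearby and outside the set, averaged 6.29 ± 1.07 RPM with IL-22 and 24.9 ± 2.99 RPM in controls, which the authors' deposited table gives as 3.96-fold lower. The genes Akr1b3 and Akr1b10 of the same stretch are not listed.

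Cbr1 and Cbr3, the carbonyl reductases, are adjacent on chromosome 16 and both were lower. Cbr1 (Entrez 12408) had 146.3 and 107.3 RPM with IL-22, against a control mean of 256.4 ± 7.01 RPM, and no control library can lie under 235 RPM. Cbr3 (Entrez 109857) had 14.5 and 11.4 RPM with IL-22, against 41.1, 37.7, 38.9 and 37.3 RPM in the control libraries. Cbr3 fell 2.99-fold in the authors' deposited table, with an adjusted p of 0.000805 there and of 0.0256 over all protein-coding genes, while Cbr1 was 2.02-fold lower with 0.00325 and 0.104. Cbr1 sat at the edge of the authors' threshold, and without the shallower IL-22 library its difference was 1.75-fold. The ratio of Cbr3 is larger than that of its neighbour, but the difference between both ratios was not tested.

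The quinone reductase Cryz (Entrez 12972, chromosome 3), also named zeta-crystallin, had 1.79 and 1.87 RPM with IL-22, against 6.10, 6.04, 5.95 and 5.56 RPM in the control libraries. Wells within each group were nearly equal, from 58 and 56 reads with IL-22 and 223, 213, 163 and 126 reads in controls. This spread is smaller than counting error at such read numbers, so the p-values may be too small. Cryz fell 3.23-fold in the authors' deposited table, with an adjusted p of 0.000368 there and of 0.0117 over all protein-coding genes. In the list of 18 aldo-keto reductases 4 were listed, 1 higher and 3 lower. In the list of 49 alcohol and short-chain dehydrogenases 11 were listed, of which 0 were higher and 11 lower. Among all listed genes 61.3% were lower.

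**Figure D3:**
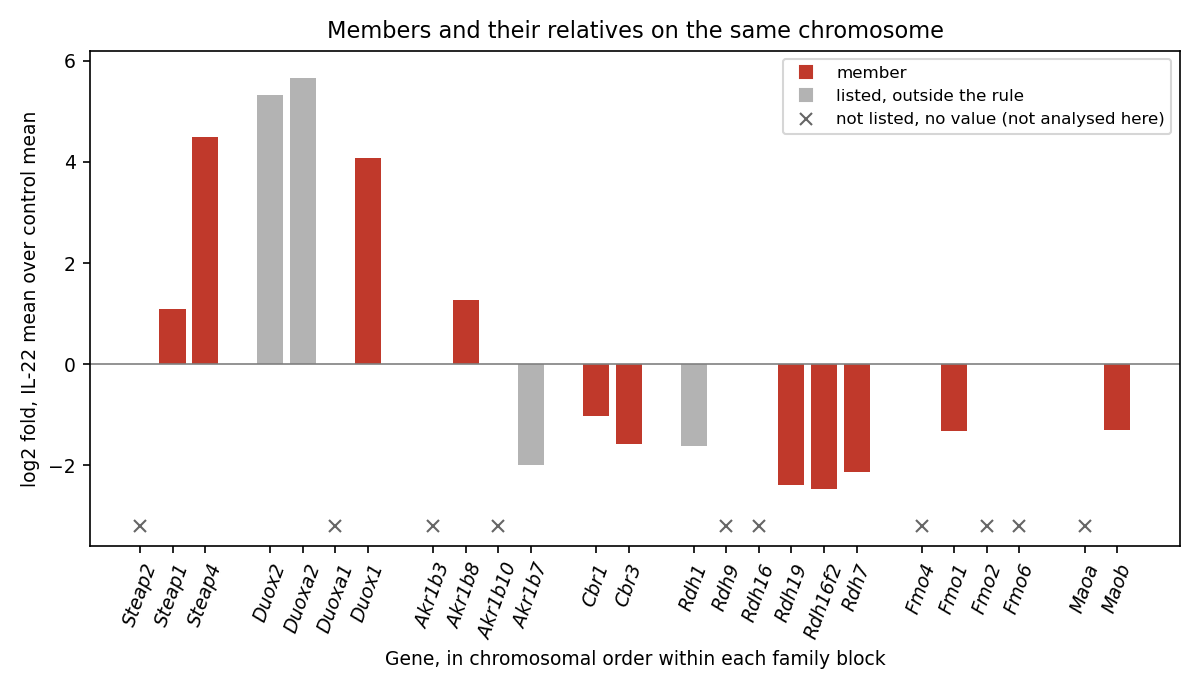
Bars give the log2 fold of IL-22 over control means for relatives in their chromosomal order within each family block, with genes of other families between them left out. Red bars are genes of the set, grey bars listed genes outside it, and crosses genes that are not listed and have no value. In the Akr1b block the bars point in opposite directions, and in the Duox, Cbr and Rdh blocks every bar points one way.

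A run of retinol dehydrogenase relatives on chromosome 10 held 3 of the lower genes, Rdh19, Rdh16f2 and Rdh7, side by side. These short-chain dehydrogenases act on retinol and hydroxysteroids. Rdh7 (Entrez 54150) had 24.5 and 22.8 RPM with IL-22, against a control mean of 103.6 ± 6.87 RPM, and no control library can lie under 83.0 RPM. It was 4.38-fold lower according to the authors' deposited table with an adjusted p of 0.00361, and 0.115 over all protein-coding genes. Rdh19 (Entrez 216453) had 0.246 and 0.268 RPM with IL-22, from 8 reads in each library, against 1.53, 1.59, 1.39 and 0.839 RPM in the control libraries. Rdh16f2 (Entrez 216454) had 0.370 and 0.435 RPM with IL-22, against 2.38, 2.64, 1.93 and 1.90 RPM in the control libraries. Their folds were 5.20 lower with an adjusted p of 0.0155 for Rdh19 and 5.50 lower with 0.00496 for Rdh16f2 in the authors' deposited table, and the values over all protein-coding genes were 0.494 and 0.158. Both low genes stood below the lowest control library in each IL-22 library. Rdh1, which lies in the same stretch and outside the set, was 3.06-fold lower in the same table, and the Rdh9 and Rdh16 genes between them are not listed. As 67.7% of the 31-base words of Rdh19, 75.1% of those of Rdh16f2 and 79.7% of those of Rdh7 occur in no other gene, reads may have been split between these copies.

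Fmo1 and Fmo5 belong to the flavin-containing monooxygenases, which add oxygen to drugs and other foreign compounds. Fmo1 (Entrez 14261, chromosome 1) had 2.53 and 2.71 RPM with IL-22, against 6.70, 6.50, 6.49 and 6.62 RPM in the control libraries. The control libraries spanned a narrow range, from 245, 229, 178 and 150 reads. Counting error alone at such read numbers is larger than this spread. The small p of Fmo1 thus rests partly on wells that happened to lie close together. Fmo1 fell 2.51-fold in the authors' deposited table, with an adjusted p of 8.625e-05, and 0.00274 over all protein-coding genes, the smallest of the 32. Fmo5 (Entrez 14263, chromosome 3) had 61.2 and 57.1 RPM with IL-22, against a control mean of 139.9 ± 7.91 RPM, and was 2.37-fold lower with an adjusted p of 0.00486 in the authors' deposited table. Its value over all protein-coding genes was 0.155. Fmo2, Fmo4 and Fmo6, which lie near Fmo1, are not listed, and in the list of 14 flavin monooxygenases and molybdenum hydroxylases both listed genes were these 2.

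Maob, Aoc1, Dao, Kmo and Bbox1 break down or build amines and amino acids, and all 5 were lower. The mitochondrial monoamine oxidase Maob (Entrez 109731, chromosome X) had 53.3 and 57.6 RPM with IL-22, against a control mean of 136.2 ± 7.14 RPM. Diamine oxidase Aoc1 (Entrez 76507, chromosome 6), which degrades histamine and polyamines and which the table names Abp1, had 71.3 and 62.5 RPM with IL-22, against a control mean of 215.4 ± 15.9 RPM. No control library can lie under 115 RPM for Maob or under 168 RPM for Aoc1. In the authors' deposited table Maob was 2.46-fold lower with an adjusted p of 0.0039, and Aoc1 3.22-fold lower with 0.00596. Their values over all protein-coding genes were 0.124 and 0.190. Maoa, the neighbour of Maob, is not listed.

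The peroxisomal D-amino acid oxidase Dao (Entrez 13142, chromosome 5) had 2.19 and 1.81 RPM with IL-22, against 4.37, 5.11, 3.28 and 4.68 RPM in the control libraries. Kmo (Entrez 98256, chromosome 1), a monooxygenase of tryptophan breakdown, had 0.185 and 0.268 RPM with IL-22, from 6 and 8 reads, against 0.820, 1.02, 1.24 and 0.927 RPM in the control libraries. Bbox1 (Entrez 170442, chromosome 2), which completes carnitine synthesis, had 3.88 and 5.42 RPM with IL-22, against 13.5, 12.0, 12.5 and 10.1 RPM in the control libraries. Each of these genes was below all control libraries in both IL-22 libraries. The folds in the authors' deposited table were 2.18 lower for Dao with an adjusted p of 0.0178, 4.43 lower for Kmo with 0.00727 and 2.59 lower for Bbox1 with 0.00577. Over all protein-coding genes the values were 0.566 for Dao, 0.231 for Kmo and 0.183 for Bbox1. Without the shallower IL-22 library Dao was 1.99-fold lower. In the list of 25 amine, polyamine and amino acid oxidases the 3 listed genes were Maob, Aoc1 and Dao. All were lower, as were 61.3% of all listed genes.

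Dio1 and Iyd handle iodine, the deiodinase Dio1 by taking iodine off thyroid hormone and Iyd by recovering it from iodotyrosines. Dio1 (Entrez 13370, chromosome 4) had 11.2 and 9.07 RPM with IL-22, against 29.3, 28.0, 31.5 and 25.0 RPM in the control libraries. Iyd (Entrez 70337, chromosome 10) had 7.70 and 6.89 RPM with IL-22, against 22.7, 17.9, 22.0 and 18.5 RPM in the control libraries. Both IL-22 libraries were under every control library for each gene. The authors' deposited table gives 2.81-fold lower with an adjusted p of 0.00301 for Dio1 and 2.78-fold lower with 0.00442 for Iyd, and the values over all protein-coding genes were 0.0957 and 0.141.

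Vkorc1, Tet1 and Acad11 work on a vitamin, on DNA and on fatty acids. Vkorc1 (Entrez 27973, chromosome 7), which recycles vitamin K, had 11.9 and 9.84 RPM with IL-22, against 22.6, 22.2, 25.3 and 23.6 RPM in the control libraries. Tet1 (Entrez 52463, chromosome 10), which oxidizes methylated cytosine in DNA, had 1.23 and 1.34 RPM with IL-22, against 2.84, 2.67, 2.74 and 3.09 RPM in the control libraries. The acyl-CoA dehydrogenase Acad11 (Entrez 102632, chromosome 9) had 52.1 and 49.1 RPM with IL-22, against a control mean of 103.9 ± 6.05 RPM. In all 3 genes the wells of a group lay close together and the groups apart. The folds in the authors' deposited table were 2.15 lower with an adjusted p of 0.00202 for Vkorc1, 2.20 lower with 0.0018 for Tet1 and 2.05 lower with 0.00677 for Acad11. Over all protein-coding genes the values were 0.0643 for Vkorc1, 0.0572 for Tet1 and 0.215 for Acad11. Without the shallower IL-22 library, Vkorc1 was 1.97-fold lower and Acad11 fell just short of the 2-fold threshold. Exonic bases shared on the same strand with Gm21974 made up 47.7% of Vkorc1, and 54.0% of its 31-base words occur in no other gene, so its count is uncertain.

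The promoter of Tet1 is shown because it was the single promoter of the set with the core of the antioxidant response element, TGACNNNGC, in capitals. Of all promoters of this length 10.2% hold it.
Tet1, chr10:62887325-62887574, minus strand: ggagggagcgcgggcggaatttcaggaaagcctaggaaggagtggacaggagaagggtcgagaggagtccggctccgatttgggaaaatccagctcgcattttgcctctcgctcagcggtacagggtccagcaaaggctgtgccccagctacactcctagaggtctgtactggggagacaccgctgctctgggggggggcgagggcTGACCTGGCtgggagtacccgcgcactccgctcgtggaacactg
The match starts 44 bases before the start of transcription. The promoters of Cbr1, Cbr3, Akr1b8 and Me1, whose genes handle carbonyls or NADPH, did not hold these letters in the window searched, and 7 genes, Gsr among them, have no entry.

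Ppp1r3b and F5 fall under the annotation term without being classical redox enzymes. Ppp1r3b (Entrez 244416, chromosome 8), which brings a phosphatase to glycogen, had 50.2 and 51.2 RPM with IL-22, against 18.5, 24.6, 13.1 and 33.4 RPM in the control libraries. Its IL-22 libraries were nearly equal and its control libraries were spread widely. The authors' deposited table gives 2.26-fold higher with an adjusted p of 0.0143 there and 0.456 over all protein-coding genes, and the gene was 1.99-fold higher without the control library of the third depth rank. F5 (Entrez 14067, chromosome 1) had 2.90 and 2.34 RPM with IL-22, against 8.15, 8.14, 8.75 and 6.58 RPM in the control libraries, 3.02-fold lower according to the authors' deposited table with an adjusted p of 0.00403 there and 0.128 over all protein-coding genes.

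The 3 cytochrome P450 genes were among the most lowered of the 32. Cyp2d10 (Entrez 13101, chromosome 15) had 0.339 and 0.368 RPM with IL-22, against 3.36, 3.15, 3.54 and 2.65 RPM in the control libraries. Cyp2c37 (Entrez 13096, chromosome 19) had 0.185 and 0.167 RPM with IL-22, against 3.64, 2.30, 3.72 and 1.81 RPM in the control libraries. Cyp2d11 (Entrez 545123, chromosome 15) had 2 reads and 1 read with IL-22, which is 0.0616 and 0.0335 RPM, against 1.20, 1.36, 1.35 and 0.971 RPM in the control libraries. None of the IL-22 libraries reached 0.5 RPM for any of them. The authors' deposited table gives 8.98-fold lower for Cyp2d10, 16.3-fold for Cyp2c37 and 25.7-fold for Cyp2d11, with adjusted p of 0.00226, 0.0209 and 0.003. Over all protein-coding genes the values were 0.0718 for Cyp2d10, 0.666 for Cyp2c37 and 0.0955 for Cyp2d11. For Cyp2d11 the ratio of IL-22 over control in summed reads per depth was 0.0388, with an interval of 0.00792 to 0.116. Between 41.5% (Cyp2d11) and 52.6% (Cyp2c37) of their 31-base words occur in no other gene, so that reads may have been assigned to relatives.

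Cofactors and location were read from the deposited annotation. Flavin adenine dinucleotide binding was annotated for 9 of the 32 genes, 4 higher (Steap4, Steap1, Nos3 and Gsr) and 5 lower (Acad11, Fmo5, Maob, Fmo1 and Kmo), and for 12 listed genes in all, 6 higher and 6 lower. Of the 9 genes annotated to the endoplasmic reticulum 0 were higher and 9 lower, 3 of them P450 genes, where 76.2% of the 63 listed genes with this term were lower. The 12 genes annotated to the microsome held 1 higher gene, Ppp1r3b, and 11 lower ones, 3 of them P450 genes, where 87.2% of the 39 listed genes with this term were lower. Iron binding was annotated for 3 higher genes and 5 lower ones, 3 of the latter P450 genes. Of listed genes with this term 80.0% were lower. The mitochondrion was annotated for 2 higher and 5 lower genes (64.3% of listed genes with that term were lower). The flavin genes thus stood on both sides.

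Among the 54 other listed genes with the oxidation-reduction term, 5 were higher and 49 lower, with median folds of 10.7 and 2.77. In the gene lists by role, 3 of 21 aldehyde dehydrogenases were listed, Aldh1l1 higher and Aldh1a1 and Aldh1a7 lower. Of 29 genes for amino acid and tryptophan catabolism 3 were listed and 3 were lower, with Ddc beside Kmo and Bbox1. Of all listed genes 61.3% were lower. Of 25 acyl-CoA dehydrogenases and oxidases 2 were listed, Acadl 2.14-fold higher and Acad11 lower in the authors' deposited table. Tet1 was the 1 listed gene of 52 for oxidative folding and iron-dependent hydroxylases. Genes that are not listed have no values here.

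The listed markers of differentiated enterocytes moved with the lower genes. Of 10 such markers 6 were listed, and 0 were higher and 6 lower (Fabp2, Apoa4, Alpi, Sis, Lct and Treh). Among all listed genes 61.3% were lower. The other 4 markers (Fabp1, Apoa1, Anpep and Vil1) are not listed and have no values here. Summed over the listed markers, the means were 3283 RPM with IL-22 (3227 and 3339 RPM in its 2 libraries) and 7477 RPM in controls. The direction of these sums is fixed because only lower genes were summed. The part of these markers in the lower genes was not tested, and in bulk libraries fewer cells of a type and less RNA per cell cannot be told apart. Among 14 markers of goblet, Paneth, tuft and enteroendocrine cells Mmp7 was higher and Trpm5 and Pou2f3 were lower, and of 7 stem and cycling cell markers Olfm4 was lower. No marker of blood cells (of 7), mesenchyme and muscle (of 8), or vessels and nerve (of 6) was listed, which cannot show whether such cells were present.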

How the data were processed

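The 690 rows are the authors' deposited table of genes selected as different, with at least 2-fold differences. Among these rows the largest unadjusted p was 0.0239, and the smallest mean in the higher group was 20 reads. A gene with few reads in 1 group was thus listed through its reads in the other group. The group means are in RPM (reads per 1000000 reads of the library), a unit inferred from the values of the deposited table because no header names it, and the authors left the value of 1 read in libraries without reads. The deposited ratio, or fold, divides the IL-22 mean by the control mean. Recomputation of the authors' p-values showed a pooled-variance comparison with 4 degrees of freedom, and their adjusted p-values are Benjamini-Hochberg values over the 690 rows alone. BWA 0.5.9 and Picard 1.58 are named in the submitters' processing notes. Build, annotation, counting program and strand use were not given in the sources used here.

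Reads per library were recovered as whole reads. Both IL-22 values of 593 of 593 genes below 2000 mean reads came within 0.01 of a whole read, and in 571 of 632 genes searched (90.3%) a single set of control reads matched the mean, SEM and mean reads. This step was checked on simulated data. Intervals (95%) and the floor of 3 reads, 0.082 to 0.132 RPM in control libraries, cover counting error only. No count test across all genes could be run, since only selected genes were listed. The planned adjustment used the 21951 protein-coding genes of GENCODE M21, from which the share of 31-base words in no other gene was also computed (at least 95% in 17 of 32 genes). Names and promoters were matched to RefSeq GRCm38.p6 (679 of 690 genes, 32 of 32 of the set).

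The set and the gene lists were chosen with earlier results of these data known. Full values are given for the 8 higher genes, for the 15 lower genes with the largest fold among those with a control mean of at least 5 RPM, and for genes passing the adjustment over all protein-coding genes, and the other lower genes were given in the same way. Counts over the set include 1 gene that is not reported here. Computation used Python 3.11.15, numpy 2.4.6, scipy 1.17.1 and matplotlib 3.10.9. Alternatives changed the fold and read minimum, an added 1 or 5 RPM, the scale, the variances, single libraries, the normalization, the annotation rule and the adjustment.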

Additional observations from a re-analysis of the deposited data

Results flagged for a closer look

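Control libraries of 24 genes were examined for a library apart from the rest, and 1 gene was picked out, where chance alone gives about 1 in 20. In Duox1 the control library of the third depth rank stood at 0.146 RPM, whereas the other 3 control libraries were at 0.0442 RPM or less. Both IL-22 libraries, at 1.26 and 0.803 RPM, lay above it. Without that control library the IL-22 mean was 31.03-fold the control mean, against 16.8-fold with it in the authors' deposited table. The 4 control libraries hold 6 reads of Duox1 in all. Each of the 3 lower values is that of 1 read, also left in a library without reads, so the flag and the 31.03-fold rest partly on filled-in values.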

How the results depend on the processing

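Of 62 summary values recomputed, 45 stayed within the range counted as unchanged (1.5 times for a count). The number of higher genes, 8 as reported, was 2 at 4-fold or more (median fold 19.6), 5 with at least 100 mean reads in the higher group, 5 with 1 RPM and 3 with 5 RPM added to both means, and 4 with unequal variances. The number of lower genes, 24 as reported, was 7 at 4-fold or more (median fold 5.50), 9 with 5 RPM added (median 2.34), 46 with genes of the lipid and immune terms kept and 41 with the left-out gene families kept. Of the genes passing the adjustment over all protein-coding genes, 5 as reported, 1 passed with Bonferroni, 32 with the authors' adjustment, 1 with unequal variances, 18 on the log2 scale and 10 with the lipid and immune genes kept. With unequal variances and no adjustment, Duox1, Nos3, Aldh1l1, Akr1b8 and Cbr1 missed a p of 0.05, and lower genes made up 85.2% of the genes of the set and 73.5% of the listed genes that came under it. With 1 RPM added, Steap4, Duox1, Nos3, Dao, Tet1, Kmo and Rdh19 came under 2-fold, since added RPM shrinks the folds of genes with low values. The cause of the other changes was not tested.

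Leaving out 1 library gave 6 to 8 higher genes (median fold 2.53 to 3.19) and 20 to 24 lower genes (median 2.84 to 3.04). In the worst case that the SEM allows for a control library, Ppp1r3b, Steap1, Cbr1, Acad11 and Dao came under 2-fold. Leaving out each recovered control library in 24 genes, Steap1 and Dao among them, took only Ppp1r3b under 2-fold. Leaving out the P450 genes and each recovered control library was added after the data were seen. No paired analysis was possible because recovered control libraries carry no mouse or well number. Depth limits Steap4, Duox1, Kmo, Rdh19, Cyp2c37 and Cyp2d11, which had under 10 mean reads in the lower group.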
